A study of Homo sapiens with 4 samples.

Results

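The aldehyde dehydrogenase genes of 2 human colorectal cancer cell lines, HCT116 and Caco-2, were followed after RNA interference against BORIS. The 10 genes were ALDH1A1, ALDH1A2, ALDH1A3, ALDH1B1, ALDH1L1, ALDH2, ALDH3A1, ALDH3A2, ALDH7A1 and ALDH9A1, of 18132 genes with a probe set of their own on the array. They were represented by every probe set that the platform annotation pairs with 1 of them alone, 28 of 49395 in all. The genes were selected by name from a family that had drawn attention because of the lower ALDH1A1 value in Caco-2 cells with BORIS siRNA, so the differences between siRNAs are given as a description. BORIS is the protein of CTCFL, a germline paralog of the insulator protein CTCF. Cells were transfected for 3 days with BORIS siRNA or a negative control siRNA, and total RNA of each of the 4 combinations (Caco-2 with BORIS siRNA, Caco-2 with control siRNA, HCT116 with BORIS siRNA, HCT116 with control siRNA) was labelled and hybridised to 1 PrimeView array. Every group therefore held 1 array, all cells had been transfected with an siRNA, and no array of untransfected cells was analysed here.

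Aldehyde dehydrogenases use NAD or NADP to oxidise aldehydes to carboxylic acids. The ALDH1A enzymes turn retinal into retinoic acid, a hormone-like ligand of nuclear receptors, and high aldehyde dehydrogenase activity, often ascribed to ALDH1A1, is used to sort stem-like cells from normal and cancerous colon. Other members act in mitochondria on the acetaldehyde of ethanol breakdown, on lipid aldehydes, or in the breakdown of amino acids and the synthesis of carnitine.

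Proximal promoters are shown for ALDH1A1 and ALDH1A3, the members with the strongest contrasts in these cells, and for ALDH7A1, which had higher values with BORIS siRNA in both lines. Each is the 250 bases before the annotated gene start, 5′ to 3′ on the strand of the gene, from RefSeq on build GRCh38.p14. Capitals mark matches, on either strand, to the CCAAT box (CCAAT) and the GC box (GGGCGG).
ALDH1A1, chr9:72953054-72953303, minus strand: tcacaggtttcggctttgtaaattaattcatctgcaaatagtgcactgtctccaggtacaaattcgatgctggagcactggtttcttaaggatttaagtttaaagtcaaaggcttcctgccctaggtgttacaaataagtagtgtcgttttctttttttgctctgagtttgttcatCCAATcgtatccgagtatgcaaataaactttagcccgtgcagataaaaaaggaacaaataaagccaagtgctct
ALDH1A3, chr15:100879581-100879830, plus strand: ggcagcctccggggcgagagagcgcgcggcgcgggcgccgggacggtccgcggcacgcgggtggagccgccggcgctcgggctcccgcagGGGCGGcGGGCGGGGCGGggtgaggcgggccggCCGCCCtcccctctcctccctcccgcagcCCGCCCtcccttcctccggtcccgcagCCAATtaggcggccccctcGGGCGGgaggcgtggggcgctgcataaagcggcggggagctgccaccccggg
ALDH7A1, chr5:126595220-126595469, minus strand: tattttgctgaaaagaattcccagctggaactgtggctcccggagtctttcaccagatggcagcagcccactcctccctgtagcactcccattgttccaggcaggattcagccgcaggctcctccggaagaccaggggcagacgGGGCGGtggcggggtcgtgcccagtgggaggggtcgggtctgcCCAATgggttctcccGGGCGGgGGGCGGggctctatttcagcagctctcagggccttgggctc

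The ALDH1A1 promoter is poor in G and C, at 38.4%, with 6 CpG dinucleotides and no GC box, whereas the ALDH1A3 promoter has 82.4% G and C, 38 CpG dinucleotides and 6 GC boxes. All 3 carry 1 CCAAT box on the plus strand of the gene, which starts 74 bases before the gene start in ALDH1A1, 71 in ALDH1A3 and 63 in ALDH7A1. Over 35116 promoters of this length, the median G and C content was 58%, and 10.8% had as little as ALDH1A1 or less. The CpG count of ALDH1A1 was less unusual, since 41.1% of promoters had as few or fewer, with a median of 11. A CCAAT box was held by 32% and a GC box by 42.6%. ALDH7A1 lies between ALDH1A1 and ALDH1A3, with 64% G and C, 11 CpG dinucleotides and 3 GC boxes. Promoter entries were found for 8 of the 10 members, 11 in all. A match in the letters describes the sequence and shows no binding. ALDH2 and ALDH3A1 have no entry in the promoter table.

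A probe set was taken as above background when it reached the 95th percentile of the olfactory receptor probe sets of its array, a level between 4.80 and 5.15 on the log2 scale of the deposited values. Each gene was read from its brightest probe set by mean value, and was called expressed in a cell line where that reached the median of all probe sets (5.46 to 5.48) on at least 1 of the 2 arrays of the line. CTCFL itself had 7 probe sets, none of which reached the array median. Only 1 lay above background on any array, at 5.09 with BORIS siRNA and 5.07 with control siRNA in Caco-2, and below background at 4.93 with BORIS siRNA and 5.07 with control siRNA in HCT116. The extent of the knockdown therefore has no usable check here. Poly-A spike-in controls are added to the RNA before labelling. Their median log2 difference, BORIS minus control siRNA, was 0.88 in HCT116 and -0.08 in Caco-2. That of the hybridisation controls was 0.39 in HCT116 and 0.002 in Caco-2. The part of either in the HCT116 differences below was not tested. Of 10 colorectal epithelial markers, 9 lay above background on at least 1 array, CDX1 on none, and the differentiation markers VIL1 and LGALS4 were at background on both HCT116 arrays. Of the markers of other cell types, 0 of 6 fibroblast, 1 of 5 blood cell, 2 of 5 endothelial and 3 of 5 hepatocyte genes lay above background on any array. PTPRC, CD3E, PECAM1, CDH5 and ALB did so on none. The hepatocyte marker SERPINA1 was bright in Caco-2, at 11.89 with BORIS siRNA and 11.47 with control siRNA. It read 5.86 with BORIS siRNA and 6.22 with control siRNA in HCT116. TTR, VWF and KDR lay above background on all 4 arrays, and APOA1 on 1.

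The 10 members fell into 3 patterns of expression. ALDH1A3, ALDH1B1, ALDH2, ALDH3A2, ALDH7A1 and ALDH9A1 were expressed in both lines, ALDH1A1 and ALDH3A1 in Caco-2 alone, and ALDH1A2 and ALDH1L1 in neither. The 3 probe sets of ALDH1A2, the retinal dehydrogenase of the early embryo, lay between 2.65 and 3.46 on all arrays. Both probe sets of ALDH1L1, the folate enzyme that oxidises 10-formyltetrahydrofolate, lay between 3.43 and 4.19. Neither gene is given a fold change.

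**Figure D1:**
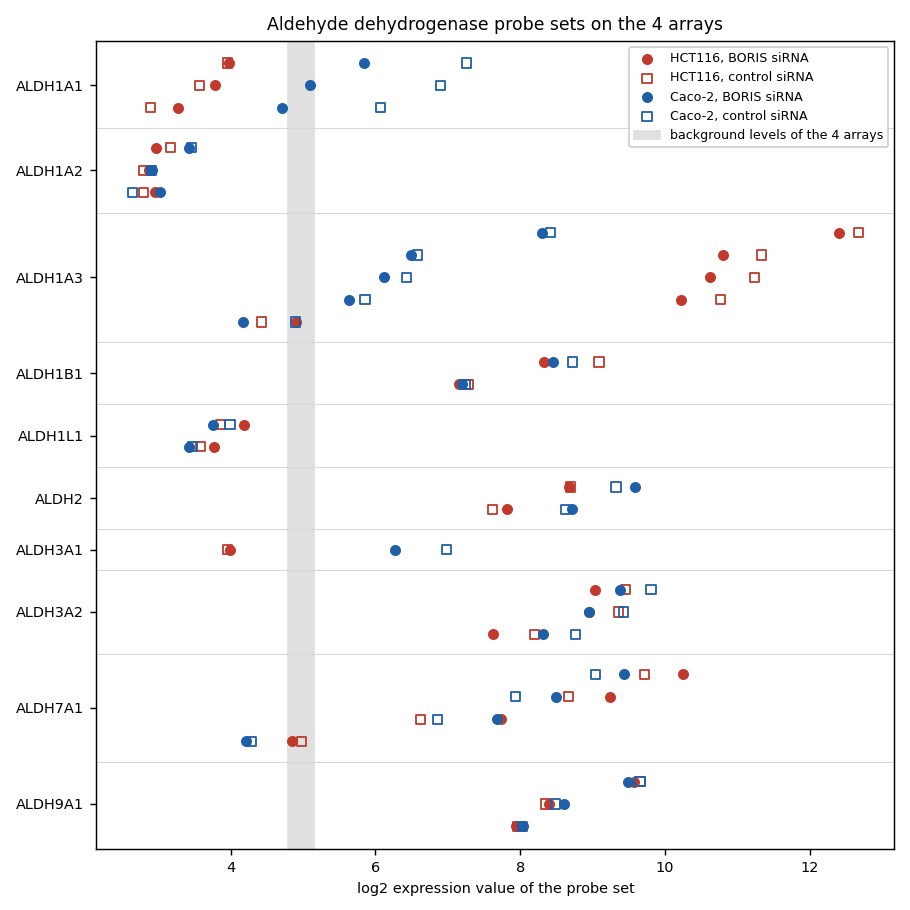
Log2 value (x axis) of each of the 28 probe sets of the 10 genes (rows, grouped by gene, brightest on top) on the 4 arrays, 1 point per array; the grey band spans the background levels of the arrays. ALDH1A1 and ALDH3A1 lie left of the band in HCT116, and 4 of the 5 ALDH1A3 probe sets lie at 10.22 or more in HCT116 and at 8.42 or less in Caco-2.

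The first comparison set the Caco-2 array with BORIS siRNA against that with control siRNA. ALDH1A1 was lower with BORIS siRNA on all 3 of its probe sets. Its brightest probe set read 5.84 with BORIS siRNA and 7.25 with control siRNA, a log2 difference of -1.41, or a 2.67-fold lower value. The second read 5.09 with BORIS siRNA and 6.89 with control siRNA, a difference of -1.80. The dimmest read 4.70, at background, with BORIS siRNA and 6.07 with control siRNA, which is lower by at least 1.28. Probe sets share the 2 arrays and are not replicates. The SD of the difference over the 3 ALDH1A1 probe sets was 0.24. Genes with several bright probe sets in Caco-2 had a median SD between probe sets of 0.105. Neither SD measures the spread of the siRNA difference between replicate arrays.

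ALDH1A1 was the gene with the lowest difference of the 10389 genes expressed in Caco-2, and 1 of the 5 genes, 0.0481% of those expressed, that were 2-fold or more lower. This is the value for which the family was picked, so the rank describes the selection. No other member reached 2-fold in Caco-2, where 0.404% of expressed genes were higher by that much. With 1 array per group the difference has no replicate check. Of the blood cell markers, ITGAM alone lay above background, in Caco-2, at 5.12 with BORIS siRNA and 5.92 with control siRNA, and the summed log2 level of the 5 markers was 6.35 with BORIS siRNA and 6.84 with control siRNA; their part in the ALDH1A1 difference was not tested.

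ALDH3A1, an enzyme of aromatic and lipid aldehydes best known from the cornea, has a single probe set. It read 6.28 with BORIS siRNA and 6.98 with control siRNA in Caco-2, a difference of -0.71, the 52nd lowest of the expressed genes. By likeness of pattern to ALDH1A1, the nearest of 11164 genes were MT1G, LHFPL3 and ALDH3A1. The measure was the root mean square difference of the mean-centred log2 values over the 4 arrays, 0.25 for ALDH3A1, 0.17 for the metallothionein gene MT1G and 0.18 for LHFPL3. MT1G read 8.90 with BORIS siRNA and 9.89 with control siRNA in Caco-2, and 7.03 with BORIS siRNA and 6.81 with control siRNA in HCT116. LHFPL3 read 4.36, at background, with BORIS siRNA and 5.52 with control siRNA in Caco-2. The order rests in part on values at background, those of ALDH1A1, ALDH3A1 and LHFPL3 in HCT116, and the pattern they share was what selected them.

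Of the other retinal dehydrogenases, ALDH1A2 was at background, and ALDH1A3 differed little. The 4 ALDH1A3 probe sets above background in Caco-2 differed by -0.10 to -0.32, and the brightest read 8.30 with BORIS siRNA and 8.42 with control siRNA.

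ALDH3A2, the fatty aldehyde dehydrogenase of the endoplasmic reticulum, was lower on all 3 of its probe sets, by nearly equal amounts. They differed by -0.43, -0.45 and -0.47 in Caco-2, and the brightest read 9.37 with BORIS siRNA and 9.81 with control siRNA. ALDH7A1, which acts in lysine breakdown, had the opposite direction. Its brightest probe set read 9.43 with BORIS siRNA and 9.04 with control siRNA, a difference of 0.39, and the next read 8.50 with BORIS siRNA and 7.94 with control siRNA, a difference of 0.56. A dimmer one read 7.68 with BORIS siRNA and 6.85 with control siRNA, a difference of 0.82, and the remaining probe set lay at background on all arrays. All 3 bright probe sets are of kinds that can bind transcripts of more than 1 gene (_s_at or _x_at), though the annotation pairs them with ALDH7A1 alone.

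The mitochondrial and housekeeping-like members differed little. ALDH2, the mitochondrial enzyme of acetaldehyde, read 9.59 with BORIS siRNA and 9.32 with control siRNA, a difference of 0.26, and 0.09 on its other probe set. ALDH1B1, a mitochondrial paralog reported in colorectal tumours, differed by -0.28 on the brighter and -0.05 on the dimmer probe set. ALDH9A1, an enzyme of carnitine synthesis, differed by -0.17, 0.11 and 0.01 on its 3 probe sets. Of the 8 expressed members, 6 were lower and 2 higher in Caco-2, with a median of -0.22, where 5134 of all 10389 expressed genes were lower, with a median of 0.003.

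**Figure D2:**
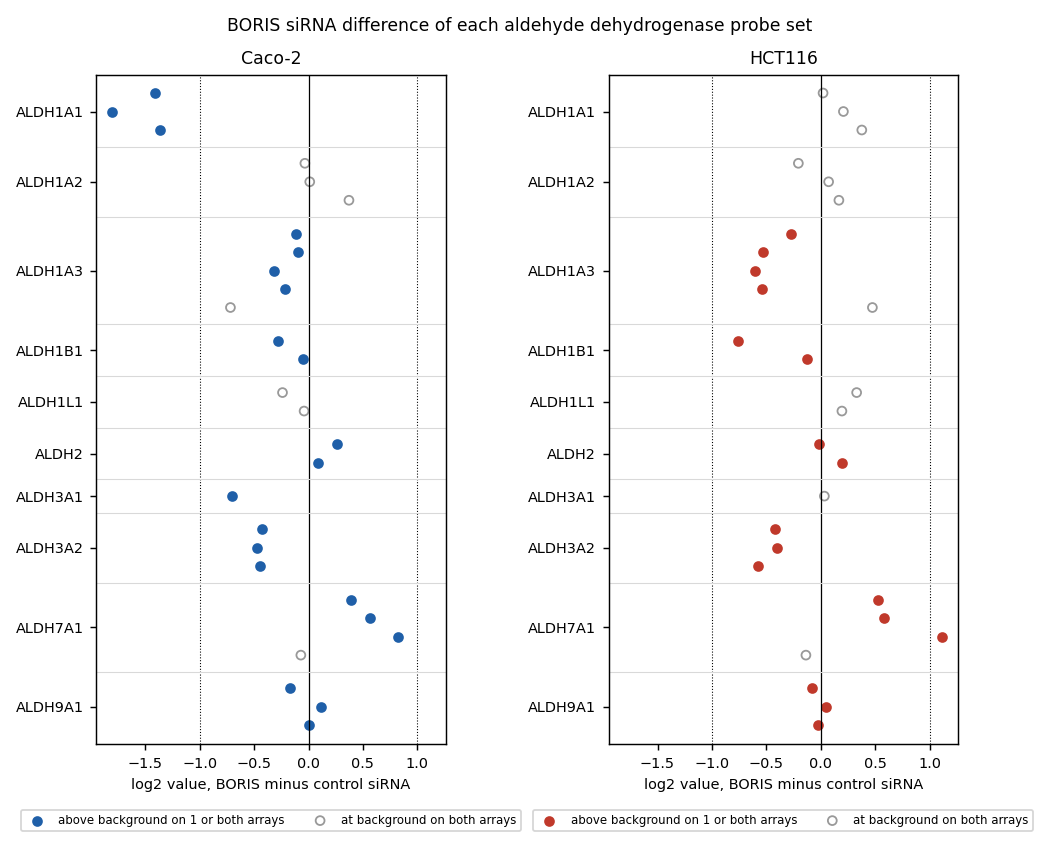
Difference in log2 value, BORIS minus control siRNA (x axis), for each probe set of the 10 genes (rows), in Caco-2 on the left and HCT116 on the right; filled points lie above background on at least 1 of the 2 arrays of the line, open points on neither, and dotted lines mark 2-fold. The 3 ALDH1A1 points in Caco-2 lie between -1.37 and -1.80, and the filled ALDH3A2 and ALDH7A1 points lie on opposite sides of 0 in both lines.

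The same comparison in HCT116 could not be made for ALDH1A1. Its brightest probe set read 3.98 with BORIS siRNA and 3.96 with control siRNA, and all 3 were at background on both arrays. ALDH3A1 was at background too, at 3.99 with BORIS siRNA and 3.96 with control siRNA. No member gene reached 2-fold in HCT116, where 1.45% of the 10631 expressed genes were lower and 0.583% higher by that much.

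On its brighter probe set, ALDH1B1 read 8.32 with BORIS siRNA and 9.09 with control siRNA, a difference of -0.76. Its other probe set read 7.16 with BORIS siRNA and 7.29 with control siRNA, a difference of -0.13, so the probe sets disagree by more than the median SD of 0.142 between probe sets of a gene in that line. ALDH1A3 read 12.40 with BORIS siRNA and 12.67 with control siRNA, a difference of -0.27 on its brightest probe set, and its other 3 bright probe sets differed by -0.53 to -0.61. ALDH3A2 was again lower on all 3 probe sets, by -0.42, -0.58 and -0.41, the brightest reading 9.03 with BORIS siRNA and 9.45 with control siRNA. ALDH7A1 was again higher on its 3 bright probe sets. The brightest read 10.24 with BORIS siRNA and 9.72 with control siRNA, a difference of 0.52. The other 2 differed by 0.58 and 1.11, the last at 7.73 with BORIS siRNA and 6.62 with control siRNA. ALDH9A1 differed by -0.08, and ALDH2 by -0.01 on its brighter and 0.20 on its dimmer probe set. Read from the brightest probe sets, 5 of the 6 expressed members were lower, ALDH2 among them by -0.01, and 1 higher, with a median of -0.18, beside 5893 lower among all 10631 expressed genes and a median of -0.05.

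**Figure D3:**
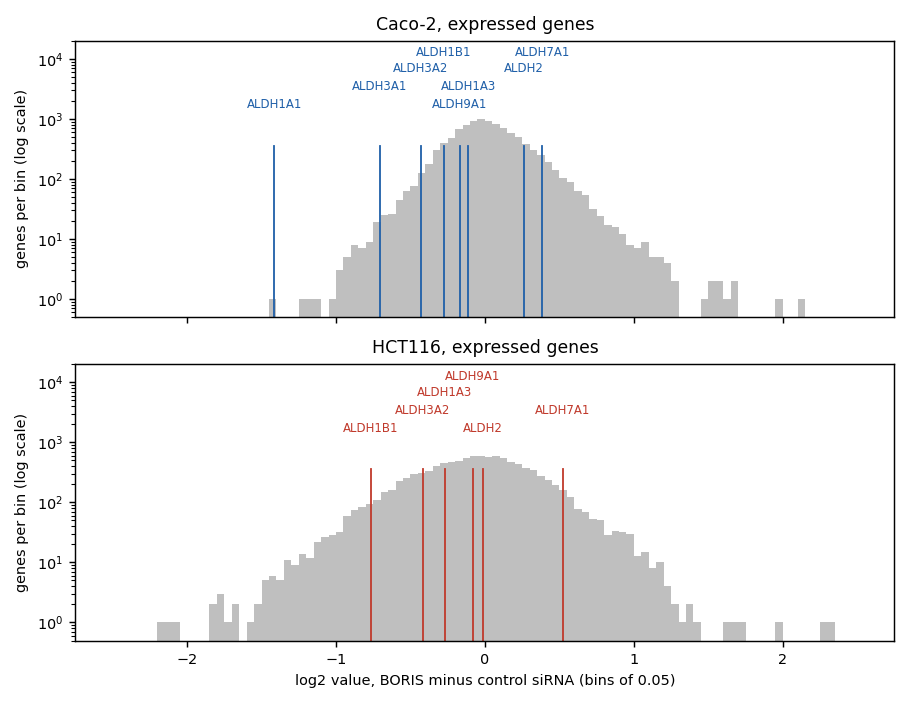
Number of expressed genes (y axis, log scale) by log2 difference between BORIS and control siRNA (x axis, bins of 0.05) in Caco-2 and HCT116; coloured lines mark the expressed members of the family. ALDH1A1 lies at the lower end of the Caco-2 distribution at -1.41, and the HCT116 members lie between -0.76 and 0.52.

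Of the 6 members expressed in both lines, which share no array, ALDH1A3, ALDH1B1, ALDH3A2 and ALDH9A1 were lower and ALDH7A1 was higher in each, read from the brightest probe sets. The dimmer ALDH9A1 probe sets differed by 0.11 and 0.01 in Caco-2 and by 0.04 and -0.02 in HCT116. The share of all genes with the same direction in both lines was not counted, so this is a description. At a size of 0.35 or more in each line, a limit set after these values had been seen, 1 of the 6, ALDH3A2, was lower in both and 1, ALDH7A1, higher in both. Over the 9855 genes expressed in both lines, 1.44% were lower and 2.72% higher by that much in each. The effect shared by the lines was fitted with limma over 11165 genes, with the cell line as a term. The fitted difference was 0.45 ± 0.16 (SE) for ALDH7A1, -0.42 ± 0.16 for ALDH3A2 and -0.52 ± 0.20 for ALDH1B1, each with a limma adjusted p of 0.769. No member of the 8 tested and 0% of all genes passed at an adjusted p of 0.05, while 3 members and 670 genes had an unadjusted p under 0.05. The fit has 1 residual degree of freedom, which is the disagreement between the lines. eBayes draws that spread toward a level shared by genes of like expression. Each SE is therefore not the gene's own disagreement between the lines.

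The next comparison was between the cell lines, with siRNA as the block in the same fit. The spread of that fit is again the disagreement between the lines in their siRNA difference, drawn toward the level shared by genes. It is not a spread between replicate arrays of a line. The family separated the lines in 2 directions. ALDH1A3 was far higher in HCT116, at 12.40 and 12.67, than in Caco-2, at 8.30 and 8.42, and the groups did not overlap. The fitted difference was 4.17 ± 0.15 (SE), which is 18-fold, with a limma adjusted p of 1.11e-05. The 4 bright ALDH1A3 probe sets differed by 4.53 ± 0.25 (SD over probe sets). The fifth lay at background on all 4 arrays, as did a further probe set that the annotation pairs with ALDH1A3 and a second gene.

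ALDH1A1 and ALDH3A1 had the opposite direction. On its brightest probe set, ALDH1A1 read 3.98 and 3.96 in HCT116, at background, and 5.84 and 7.25 in Caco-2. As the mean over both siRNAs, it was lower in HCT116 by at least 1.42, or at least 2.68-fold (limma adjusted p of 0.00253). The bound is smaller between the BORIS siRNA arrays, where Caco-2 read 5.84 and the HCT116 background was 5.15. The other ALDH1A1 probe sets were dimmer in Caco-2, at 5.09 and 6.89 and at 4.70 and 6.07, and give smaller bounds. ALDH3A1 read 3.99 and 3.96 in HCT116, at background, and 6.28 and 6.98 in Caco-2. By the same mean it was lower in HCT116 by at least 1.51, or at least 2.84-fold (limma adjusted p of 0.000687). Both genes entered the test through their Caco-2 level alone, so these p-values add nothing to the bounds. All bounds between the lines given here are means over both siRNAs. HCT116 thus expressed 1 of the 3 retinal dehydrogenases, ALDH1A3, and Caco-2 expressed 2 of them.

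Smaller differences between the lines were found for 2 further members. ALDH7A1 read 10.24 and 9.72 in HCT116 and 9.43 and 9.04 in Caco-2, a fitted difference of 0.74 ± 0.16 (SE, limma adjusted p of 0.0129). On the dimmest of its 3 bright probe sets the lines overlapped, at 7.73 and 6.62 in HCT116 and 7.68 and 6.85 in Caco-2. ALDH2 read 8.68 and 8.69 in HCT116 and 9.59 and 9.32 in Caco-2, a difference of -0.77 ± 0.18 (limma adjusted p of 0.0156). ALDH1B1 at 0.12 ± 0.20, ALDH9A1 at 0.04 ± 0.16 and ALDH3A2 at -0.35 ± 0.16 did not pass, with limma adjusted p of 0.668, 0.853 and 0.142. Of the 6 members expressed in both lines, 3 passed, 2 higher and 1 lower in HCT116, where 35.1% of the 9855 genes expressed in both lines passed, 1636 higher and 1821 lower. Over all 11165 genes tested it was 39.2%.

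**Figure D4:**
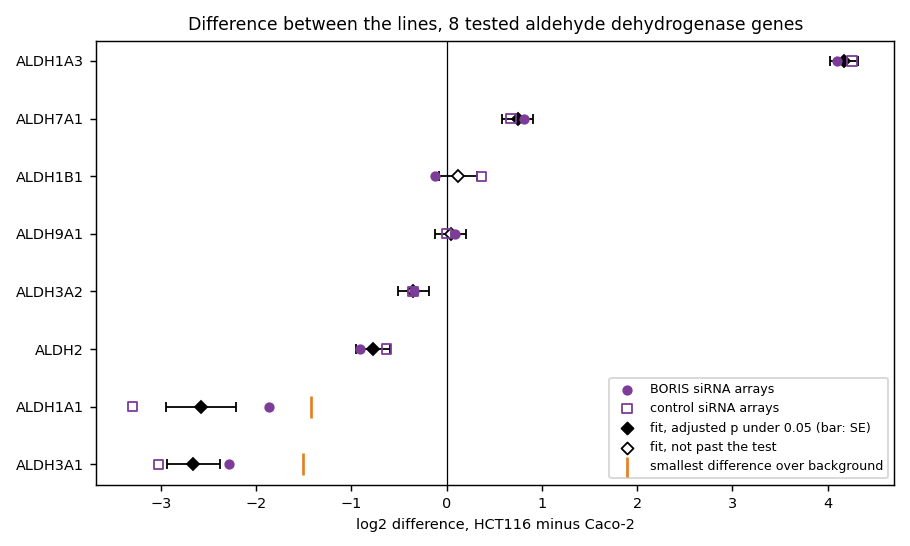
Log2 value in HCT116 minus that in Caco-2 (x axis) for the 8 tested members (rows): circles compare the BORIS siRNA arrays, squares the control siRNA arrays, and diamonds the limma fit with its standard error, filled where the adjusted p is under 0.05. Orange ticks mark the smallest difference over background, as the mean over both siRNAs, for the 2 genes at background in HCT116. ALDH1A3 lies at 4.17; for ALDH1A1 and ALDH3A1 only the ticks, at 1.42 and 1.51 below 0, can be read as sizes.

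The ALDH1A3 difference was similar with either siRNA, at 4.09 between the BORIS siRNA arrays and 4.25 between the control siRNA arrays.

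Genes around the retinal dehydrogenases were described from lists of the pathway. No enzyme, carrier or receptor of the retinoid lists reached 2-fold between siRNAs in either line. Among retinol and retinal oxidoreductases, RDH10, which makes retinal from retinol, read 8.20 with BORIS siRNA and 8.48 with control siRNA in HCT116 and 9.67 and 9.66 in Caco-2, and was lower in HCT116 than in Caco-2 by -1.32 in the fit (limma adjusted p of 0.00206). DHRS3, which returns retinal to retinol and is induced by retinoic acid, read 8.16 with BORIS siRNA and 8.41 with control siRNA in Caco-2, and 8.84 with BORIS siRNA and 9.14 with control siRNA in HCT116. Of the 4 genes of that list expressed in both lines, 1 was called higher and 2 lower in HCT116, beside the 35.1% called among all such genes. The retinoic acid carrier gene CRABP2 read 9.50 with BORIS siRNA and 9.61 with control siRNA in Caco-2, a difference of -0.11, against -0.60 in HCT116. CYP26B1, which breaks down retinoic acid, was at background in Caco-2. It read 5.88 with BORIS siRNA and 6.70 with control siRNA in HCT116, a difference of -0.82, and was higher in HCT116 than in Caco-2 by at least 1.37. The receptor gene RARA had a difference of 0.10 in Caco-2 against -0.69 in HCT116, and RXRA was lower in HCT116 than in Caco-2 by -0.85 (limma adjusted p of 0.0122). Of the 5 expressed retinoic acid target genes in Caco-2, 4 were lower with BORIS siRNA, with a median of -0.11. Over all expressed genes of that line, 49.4% were lower, with a median of 0.003. For PLAAT4, at background on the BORIS siRNA array, the difference was at least 0.94 downward. In HCT116, 2 of the 4 expressed targets were lower, with a median of -0.14, beside 55.4% and -0.05 over all expressed genes.

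The 9 family genes outside the 10 members were described likewise. Of these, 6 were expressed in each line, and 4 of the 6 were higher with BORIS siRNA in Caco-2 and 5 of the 6 lower in HCT116. Over all expressed genes, 5245 of 10389 were higher in Caco-2 and 5893 of 10631 lower in HCT116. ALDH5A1, which clears succinic semialdehyde from GABA breakdown, was the 1 gene past 2-fold. On its brightest probe set it read 5.14, at background, with BORIS siRNA and 6.40 with control siRNA in HCT116, at least 1.25 lower, and 6.61 with BORIS siRNA and 6.76 with control siRNA in Caco-2. Its other probe set, at background on both HCT116 arrays, read 4.48 with BORIS siRNA and 4.08 with control siRNA there, so it gives no second measure of the difference. ALDH3B1, which acts on lipid aldehydes, was higher in HCT116 than in Caco-2 by 1.67 (limma adjusted p of 0.00127). Stem cell markers used beside aldehyde dehydrogenase activity had 5 of the 8 expressed higher and 3 lower with BORIS siRNA in Caco-2, none by 2-fold. Between the lines, LGR5, the receptor of crypt base stem cells, read 2.95 and 2.69 in HCT116 and 6.97 and 7.25 in Caco-2, at least 1.99 lower in HCT116, and CD24 read 7.96 and 8.14 in HCT116 and 11.95 and 11.93 in Caco-2. ALCAM, a cell adhesion molecule, had the opposite direction, at 10.47 and 10.35 in HCT116 and 8.94 and 8.56 in Caco-2. Of the 6 expressed in both lines, 1 was called higher and 3 lower in HCT116, beside the 35.1% called among all such genes.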

How the data were processed

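Total RNA of 4 samples was measured on 1 PrimeView array each. Values were used on the log2 scale as deposited, 1 per probe set, between 2.13 and 14.17. For background correction, normalization and summarisation by the authors, the method is not given in the sources used here. Array medians lay between 5.46 and 5.48. Of 49395 probe sets, 44988 were paired with 1 gene by the platform annotation, and a gene was represented by its brightest such probe set. limma 3.58.1 in R 4.3.3 (lmFit, eBayes with trend, Benjamini-Hochberg adjustment) was run on 11165 genes expressed in at least 1 line, with line and siRNA as terms, and was checked on simulated data. The labels do not say whether samples came from separate cultures. With 1 array per group, the p-values measure no spread between replicate arrays. They rest on the disagreement between the lines in their siRNA difference, with 1 residual degree of freedom. eBayes draws that spread toward a level shared by genes of like expression. With 4 arrays in all, the precision is low. Members and lists were chosen with earlier results of these data known. The text names all 10 members, the 3 genes nearest to ALDH1A1 in pattern, and genes from the up to 4 per list with the largest difference. Alternatives covered the filter on dim probe sets, the choice of probe sets, normalization, an added constant, the trend and the arrays used. Promoter motifs were searched in the RefSeq table of GRCh38.p14.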

Additional observations from a re-analysis of the deposited data

Results flagged for a closer look

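Among the members and the up to 4 genes per list that the naming rule picks, 3 had BORIS siRNA differences of opposite sign in the lines, each larger than the median SD between probe sets of a gene. That limit, 0.105 in Caco-2 and 0.142 in HCT116, is low. The median size of the difference over all expressed genes was 0.152 in Caco-2 and 0.251 in HCT116. The share of all genes that meet this rule was not counted. The difference between the lines was not tested, since each group holds 1 array. FTCD, a folate enzyme, differed by 0.29 in HCT116 and -0.54 in Caco-2, a gap of 0.83. MTHFD1L, a mitochondrial folate enzyme, differed by -0.42 in HCT116 and 0.19 in Caco-2, a gap of -0.61. ALDH16A1 differed by -0.47 in HCT116 and 0.13 in Caco-2, a gap of -0.60. The lists held 6 further such genes outside that rule, named here after their values were seen: CDH1, with the widest gap of -1.23 (-0.60 in HCT116, 0.63 in Caco-2), PROM1 with a gap of -0.84, SERPINA1, KRT19, VWF and ITGB1.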

How the results depend on the processing

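Samples carry no replicate number that could serve as a block; the fits compare siRNAs within cell lines and cell lines within siRNAs. Of 268 alternative values for 35 results, 16 moved and 252 did not. The 252 kept their side of the test, stayed within the probe-set SD or fitted SE, or were counts near the reported count by ratio. They include values that could not change. The filter settings leave the siRNA difference of each gene as it is. Leaving out _x_at and _s_at probe sets changes it only for genes read from such a probe set. The count of 252 is therefore no measure of how stable the results are. No value past 2-fold or past a test changed sign. The other sign was taken by 6 values of 3 results: ALDH2 in HCT116, at 0.025 to 0.199 against -0.014 as reported, ALDH1B1 between the lines, at -0.12 on the BORIS siRNA arrays, and ALDH9A1 between the lines, at -0.07 as the mean of its probe sets. The ALDH1A1 difference in Caco-2 was -1.53 as the mean of its probe sets, 1 of them at background with BORIS siRNA, and -1.20 with 16 added on the linear scale. As the mean of its probe sets, ALDH1B1 in HCT116 was -0.45. Without _x_at and _s_at probe sets, ALDH2 in Caco-2 was 0.09, and ALDH7A1 had only the probe set at background and no value. Between the lines, ALDH1A1 differed by -1.86 on the BORIS siRNA arrays and -3.295 on the control siRNA arrays, and ALDH3A1 by -2.29 and -3.03; the HCT116 values were at background, so these are no measured sizes. The shared effect had 82 genes past the test after quantile normalization and 52 after the loess correction, with 0 members among them. Members past the line test numbered 5 of the 8 tested in the reported fit, where 39.2% of all genes passed. This count includes ALDH1A1 and ALDH3A1, which entered that test through Caco-2 alone. It was 4 without _x_at and _s_at probe sets, where ALDH7A1 had no value, and 5 in the other settings.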
